A study of Mus musculus with 26 samples.

Results

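Core pluripotency genes are described here by 7 members of the gene table, Pou5f1, Sox2, Nanog, Sall4, Lin28a, Utf1 and Fgf4, which were chosen by name. They are 7 of the 55291 genes in the table, and all 7 were among the 20953 genes with enough counts to be tested. Their levels are given in all 13 groups of libraries, with each induction of a totipotent-like state compared with the same induction after Dux knockdown or after deletion of a super-enhancer.

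The measurements were poly(A) RNA-seq of mouse R1 embryonic stem cells (ESCs), an established line grown with LIF on gelatin, in 26 libraries that form 13 groups of 2 replicates. Cells with no edit or treatment (ESC) and cells given DMSO served as controls. Wild-type cells were treated with 0.53 μM retinoic acid (RA) for 48 h, or with 4 nM PlaB for 4 days. PlaB stands in this field for the splicing inhibitor pladienolide B, and the labels give the abbreviation alone. Doxycycline at 4 μg/mL for 24 h turned on a transgene for Dux (Dux OE), for a Dux mutant that does not form condensates (DuxR70A OE) or for Zscan4 (Zscan4 OE). Dux KD cells, in which short hairpin RNAs target Dux, were given RA (Dux KD RA), PlaB (Dux KD PlaB) or the Zscan4 transgene (Dux KD Zscan4 OE). SE KO cells lack the super-enhancer near the Tdpoz genes and were given RA (SE KO RA), PlaB (SE KO PlaB) or the Dux transgene (SE KO Dux OE). The labels do not say whether replicates are separate cultures or how many knockout clones were used, so the tests measure the spread between these libraries, which may be technical. No Dux KD or SE KO cells without an induction were analysed here, so an effect of the edit itself and an effect on the induction cannot be told apart.

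Pou5f1 encodes OCT4, a POU homeodomain factor that binds DNA next to the HMG-box factor SOX2, and with the homeodomain factor NANOG they form the self-sustaining circuit of the pluripotent state. SALL4 is a zinc finger factor that supports this circuit, LIN28A is an RNA-binding protein that blocks maturation of let-7 microRNAs, UTF1 is a chromatin-associated protein of undifferentiated cells, and FGF4 is the secreted growth factor through which ESCs activate ERK and become ready to differentiate. Totipotent-like cells, also called 2-cell-like cells, switch on genes of the 2-cell embryo such as Zscan4c, and DUX is a double homeobox factor that drives this program.

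Library totals ranged from 14401452 to 39402840 counts with a median of 18276934, and the 7 genes together took between 0.136 and 0.345% of each library. The 5 ESC marker genes (Zfp42, Esrrb, Tfcp2l1, Dppa5a and Tdgf1) were above 3 counts in every library and summed to between 2570 and 6610 CPM, the counts scaled to library size. Duxf3, the annotated Dux gene, had 49 and 59 counts in RA against 16 and 6 with Dux KD RA, then 191 and 181 under PlaB against 1 and 0 with Dux KD PlaB, and 27 and 17 in Zscan4 OE against 1 and 0 in Dux KD Zscan4 OE. It had 55 and 48 counts in Dux OE and 0 and 0 in DuxR70A OE. The Dux OE counts were close to those in RA and below those in PlaB, groups without a Dux transgene, so Duxf3 checks neither transgene. Tdpoz3, next to the deleted super-enhancer, had 484 and 569 counts in Dux OE and 338 and 209 in SE KO Dux OE. These raw counts understate the difference, because library totals were 15016024 and 16092561 in Dux OE and 39402840 and 32990350 in SE KO Dux OE. Replicate 1 of SE KO RA carries a wild-type genotype label although its title says SE KO, and it was grouped by title. Its Zscan4c count of 299 lay beside the 315 of replicate 2, against 2982 and 2439 in RA, and the tests of the 7 genes and the list counts that use it are also given without it. Replicates of SE KO PlaB and Dux KD Zscan4 OE differed most, with a chi-square per degree of freedom of 30.2 and 26.1 against 1.55 to 9.81 in the other groups.

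In the positions of the table, which are on mm10, Pou5f1 lies on chromosome 17 (35506018 to 35510772, plus strand, 5 exons), Sox2 on chromosome 3 (34650405 to 34652461, plus strand, 1 exon) and Nanog on chromosome 6 (122707489 to 122714633, plus strand, 4 to 5 exons). Sall4 lies on chromosome 2 (168748332 to 168767943, minus strand, 3 to 4 exons) and Lin28a on chromosome 4 (134003330 to 134018841, minus strand, 4 exons). Both Utf1 (139943789 to 139945112, 2 exons) and Fgf4 (144847367 to 144865243, 3 exons) lie on the plus strand of chromosome 7. These spans are the same in GENCODE M21, and the exon numbers are those of its transcripts in the consensus coding set. Antisense genes share 317 exon bases with Pou5f1, 526 with Sall4 and 234 with Lin28a, and they held at most 25 counts in any library. Sox2ot, which surrounds Sox2 on the same strand, shares no exon bases with it. The pseudogene Nanog-ps1 held at most 21 counts.

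Promoters of Pou5f1, Sox2, Nanog and Fgf4 are printed because these 4 genes fell together under PlaB and were higher again in both Dux KD PlaB and SE KO PlaB, as described further on. The sequences are RefSeq windows on GRCm38.p6, 5′ to 3′ on the plus strand, on which all 4 genes lie, from 250 bases before to 50 bases after a RefSeq start site. That start need not be the first base of the span in the table. For Nanog, Pou5f1 and Fgf4 it lies inside the span, and for Sox2 it lies before it. Capitals mark matches on either strand to 3 short motifs: the octamer core ATGCAAA bound by OCT4, the SOX core CATTGT, and the KLF/SP box GGGCGGG.
Nanog (chr6:122707315-122707614): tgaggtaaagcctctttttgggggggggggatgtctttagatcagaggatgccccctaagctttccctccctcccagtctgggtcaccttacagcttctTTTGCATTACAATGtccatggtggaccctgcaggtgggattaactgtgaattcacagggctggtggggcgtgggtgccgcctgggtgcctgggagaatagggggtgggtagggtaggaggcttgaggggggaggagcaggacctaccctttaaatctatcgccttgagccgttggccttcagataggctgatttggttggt
Sox2 (chr3:34649745-34650044): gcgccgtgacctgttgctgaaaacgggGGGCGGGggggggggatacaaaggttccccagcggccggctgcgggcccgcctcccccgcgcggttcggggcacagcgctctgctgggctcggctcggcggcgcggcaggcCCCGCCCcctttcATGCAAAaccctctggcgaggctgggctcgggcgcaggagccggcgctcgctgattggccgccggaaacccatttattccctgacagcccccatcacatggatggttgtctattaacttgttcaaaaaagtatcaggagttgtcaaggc
Pou5f1 (chr17:35505782-35506081): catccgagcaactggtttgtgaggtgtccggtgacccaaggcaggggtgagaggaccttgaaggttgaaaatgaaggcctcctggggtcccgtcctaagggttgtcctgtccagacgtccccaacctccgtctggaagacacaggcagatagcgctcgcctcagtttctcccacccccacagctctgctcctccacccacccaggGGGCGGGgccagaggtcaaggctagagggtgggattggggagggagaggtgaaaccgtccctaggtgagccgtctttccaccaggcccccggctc
Fgf4 (chr7:144861136-144861435): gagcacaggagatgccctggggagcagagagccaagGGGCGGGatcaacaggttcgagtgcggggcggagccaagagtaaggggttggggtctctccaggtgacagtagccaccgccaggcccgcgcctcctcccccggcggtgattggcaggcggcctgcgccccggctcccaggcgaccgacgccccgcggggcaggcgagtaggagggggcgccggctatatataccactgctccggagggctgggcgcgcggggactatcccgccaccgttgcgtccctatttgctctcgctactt

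The printed Nanog window holds the SOX core and the octamer core side by side with 1 base between them. They lie on the strand opposite to the gene, 151 to 138 bases before the start site of that window. Letters of this composite, CATTGTNATGCAAA on either strand, occur in 2 of 32851 RefSeq promoter windows of this length (0.00609%), and both are windows of Nanog that overlap each other. In the other Nanog window the composite lies 75 to 62 bases before the start site, which there is the first base of the Nanog span. The octamer core in the Sox2 window lies 99 to 93 bases before the start, and 4.63% of all windows hold that motif. A KLF/SP box occurs in the windows of Sox2, Pou5f1, Fgf4 and Utf1 and in 25.6% of all windows, while the SOX core occurs in the Lin28a window, in a second window of Pou5f1 and in 12.6% of all windows. These are matches of letters, and none was tested as a binding site. No promoter window of Sall4 was found in the set used here, so Sall4 was not searched.

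Levels of different genes can be compared per transcript length (RPKM). On that scale the ESC libraries had Nanog at 299.1 ± 3.9 RPKM (mean ± SD, n = 2 here and throughout), Utf1 at 298.5 ± 2.1 and Pou5f1 at 288.6 ± 6.7, followed by Sox2 at 186.6 ± 4.7, Lin28a at 105.0 ± 0.3, Sall4 at 90.8 ± 3.3 and Fgf4 at 42.4 ± 2.1. In PlaB the order on the same scale was led by Utf1 at 195.8 ± 6.4 and Sall4 at 192.6 ± 6.0, with Pou5f1 at 90.5 ± 14.6, Nanog at 33.1 ± 2.8, Sox2 at 12.7 ± 3.2 and Fgf4 at 1.80 ± 0.57. All other levels below are CPM scaled by TMM, which compare 1 gene between groups. In whole-culture RNA, fewer cells that express a gene and less RNA per cell cannot be told apart.

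**Figure D1:**
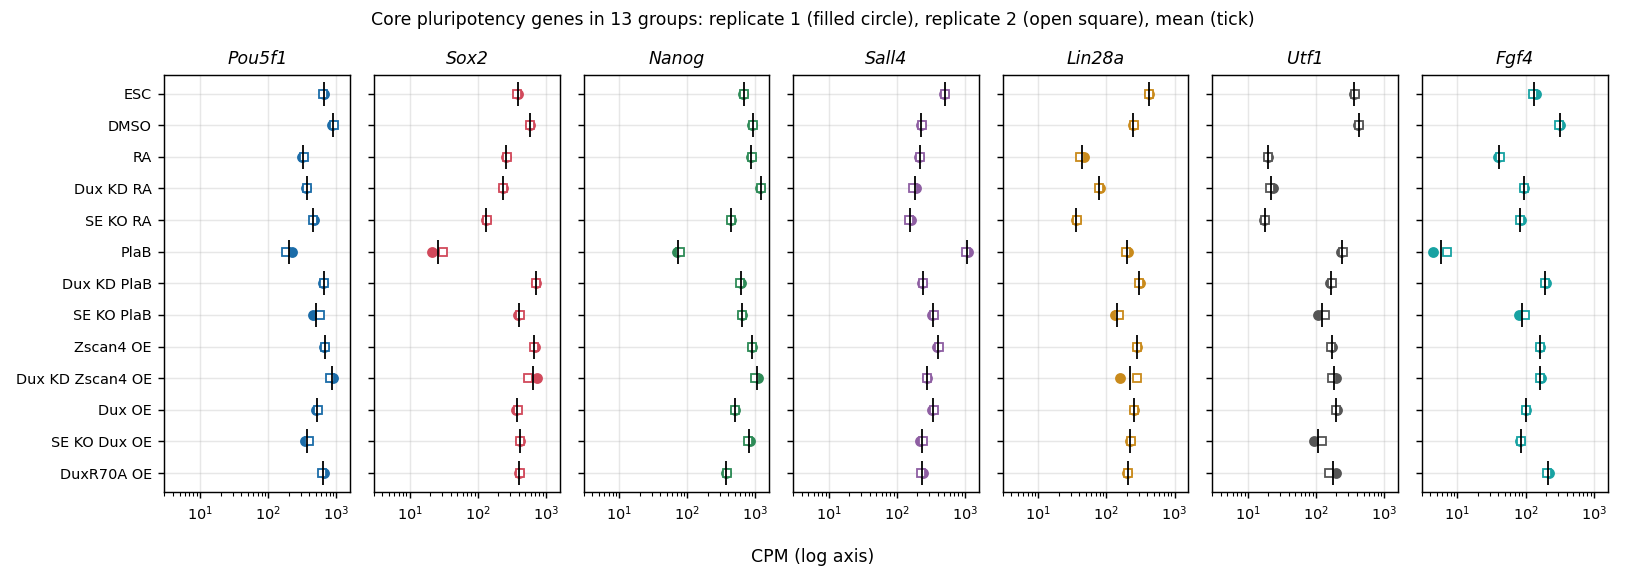
Level of each of the 7 genes in all 26 libraries, in CPM on a log axis, with replicate 1 as a filled circle, replicate 2 as an open square and the mean as a tick. Fgf4, Sox2, Nanog and Pou5f1 were lowest in PlaB, Sall4 was highest there, and Lin28a and Utf1 were lowest in the 3 groups given RA.

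The controls themselves differed, which bears on every comparison with them. Fgf4 stood at 140 and 131 CPM in ESC and at 321 and 311 CPM in DMSO, and Sall4 at 490 and 515 CPM in ESC and 226 and 231 CPM in DMSO. Of the 7 genes, 2 were called different, which required an edgeR adjusted p below 0.05 and a change of 1 or more on the log2 scale, where 16.2% of all tested genes were called. Those were Fgf4, higher in DMSO with a log2 fold change of 1.22 ± 0.10 (SE, edgeR adjusted p = 1.7e-10), and Sall4, lower at -1.14 ± 0.07 (edgeR adjusted p = 3.7e-12). Lin28a also passed as lower in DMSO, and Sox2, Nanog and Pou5f1 as higher, by less than 1 on the log2 scale. Inductions by compound were compared with DMSO and transgenes with ESC. Values against the other control are given where they change a call or a direction that is described. The labels give neither control a time, and the same DMSO libraries served RA at 48 h and PlaB at 4 days. ESC had neither a transgene nor doxycycline, so effects of the transgene, of doxycycline and of the cell line cannot be told apart.

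PlaB changed the members in opposite directions. The fall was deepest for Fgf4, the ERK-activating ligand, which went from 321 and 311 CPM in DMSO to 4.46 and 7.03 CPM in PlaB, a 54.6-fold difference (log2 fold change -5.77 ± 0.13, edgeR adjusted p = 2.0e-23). Sox2 went from 594 and 591 CPM to 21.6 and 30.8 CPM, 22.6-fold lower (-4.50 ± 0.13, edgeR adjusted p = 1.7e-21). Nanog went from 888 and 935 CPM to 69.7 and 78.6 CPM, 12.3-fold lower (-3.62 ± 0.08, edgeR adjusted p = 1.8e-23). For these 3 genes the highest PlaB library lay far below the lowest DMSO library. Pou5f1, which encodes the partner of SOX2, fell less, from 873 and 931 CPM to 226.5 and 180 CPM, 4.44-fold (-2.15 ± 0.10, edgeR adjusted p = 1.4e-16). Sall4 moved the other way, from 226 and 231 CPM in DMSO to 1090 and 1043 CPM in PlaB, 4.66-fold higher (2.22 ± 0.08, edgeR adjusted p = 8.2e-20).

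The other members stayed closer to DMSO. Utf1 passed as lower without reaching the size threshold, at 411 and 433 CPM in DMSO and 235 and 246 CPM in PlaB (-0.81 ± 0.11, edgeR adjusted p = 2.1e-07), and Lin28a had 243 and 250 CPM in DMSO against 204.5 and 192 CPM in PlaB (-0.31 ± 0.13, edgeR adjusted p = 0.0348). In all, 1 of 7 genes was called higher and 4 lower, beside 58.9% of all tested genes called in either direction. Their median log2 fold change was -2.15, beside 0.22 over all tested genes. Library totals in place of TMM moved the median of all genes by 0.26, close in size to the -0.31 of Lin28a. Against ESC in place of DMSO, Lin28a was called too, at -1.08, and the rise of Sall4 was 1.09.

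Marker genes of other cell types moved with PlaB. The 8 markers of 2-cell-like cells summed to 7260 and 7320 CPM in PlaB, all 8 above 3 counts, against 3.29 to 5.39 CPM in DMSO with 4 of 8 above it. The 6 markers of trophectoderm summed to 436 to 448 CPM against 28.0 to 29.1 CPM, and the 7 of primitive endoderm to 32.8 to 37.8 CPM against 8.83 to 10.7 CPM. Of 5 trophectoderm markers tested, 4 were called higher and 1 lower. Of the 7 primitive endoderm markers, 4 were called higher and 0 lower, and 1 passed as lower. Of 4 neural markers tested, 0 were called higher and 2 lower. In this comparison 58.9% of all tested genes were called in either direction. The 5 ESC markers summed to 5220 to 5720 CPM in PlaB and 6080 to 6090 CPM in DMSO, a sum that joins opposite changes: Esrrb, at 92.1 CPM against 1160 CPM, and Tdgf1, at 562 CPM against 1928 CPM, were called lower, and the other 3 passed as higher. Their part in the changes of the 7 genes was not tested.

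With Dux knocked down, the same PlaB treatment left all 4 of the fallen genes higher than in PlaB alone. Fgf4 stood at 198 and 193 CPM in Dux KD PlaB against 4.46 and 7.03 CPM in PlaB, 33.9-fold higher (5.08 ± 0.13, edgeR adjusted p = 2.6e-22). Sox2 stood at 722 CPM in both replicates against 21.6 and 30.8 CPM, 27.5-fold higher (4.78 ± 0.13, edgeR adjusted p = 8.6e-22). Nanog had 612 and 602 CPM against 69.7 and 78.6 CPM, 8.18-fold higher (3.03 ± 0.08, edgeR adjusted p = 5.0e-22). Pou5f1 showed the smallest of these rises, 648 and 655 CPM against 226.5 and 180 CPM, 3.21-fold (1.68 ± 0.10, edgeR adjusted p = 2.5e-14). Sall4 was 4.47-fold lower with the knockdown, at 237.5 and 240 CPM against 1090 and 1043 CPM (-2.16 ± 0.08, edgeR adjusted p = 1.9e-19).

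In this comparison 5 of 7 genes were called, 4 higher and 1 lower, where 54.9% of all tested genes were called, and the median log2 fold change was 1.68 beside -0.14 over all genes. None of the 5 calls was lost under another normalization, filter, tool or left-out library. The remaining pair passed with smaller changes in opposite directions: Lin28a was higher, at 310 and 298 CPM against 204.5 and 192 CPM (0.62 ± 0.13, edgeR adjusted p = 1.8e-04), and Utf1 lower, at 161 and 173 CPM against 235 and 246 CPM (-0.53 ± 0.11, edgeR adjusted p = 1.4e-04). Against DMSO, Sall4 differed by 0.06 ± 0.07 (edgeR adjusted p = 0.554) and Sox2 by 0.29 ± 0.11 (edgeR adjusted p = 0.0382). Fgf4 (-0.69), Nanog (-0.59) and Pou5f1 (-0.47) still passed as lower than in DMSO, and Lin28a (0.30) did not pass. Utf1 alone was called, at -1.34 ± 0.11, where 11.7% of all genes were called. The picture depends on the control: against ESC, Sall4 was called lower, at -1.07, as was Utf1, at -1.13, and Lin28a (-0.46), Fgf4 (0.53) and Pou5f1 (0.01) turned direction. In Dux KD PlaB the 2-cell-like markers summed to 5.01 to 5.38 CPM and the trophectoderm markers to 32.4 to 33.1 CPM, with 2 of 6 at 0. The primitive endoderm markers summed to 25.9 to 27.9 CPM, above the 8.83 to 10.7 CPM of DMSO, with 3 of 7 called higher and 1 lower.

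The super-enhancer deletion gave PlaB-treated cells a similar list of calls. Fgf4 had 80.4 and 97.8 CPM in SE KO PlaB, 15.4-fold above PlaB (3.95 ± 0.13, edgeR adjusted p = 3.2e-20), and Sox2 had 393 and 412 CPM, 15.3-fold above it (3.94 ± 0.12, edgeR adjusted p = 2.3e-20). Nanog had 645 and 634 CPM, 8.62-fold higher (3.11 ± 0.08, edgeR adjusted p = 4.4e-22), and Pou5f1 448 and 572 CPM, 2.51-fold higher (1.33 ± 0.10, edgeR adjusted p = 3.4e-12). Sall4 was 3.14-fold lower, at 326 and 352 CPM (-1.65 ± 0.07, edgeR adjusted p = 3.9e-17). All of these replicates lay outside the range of the PlaB replicates. Again 4 genes were called higher and 1 lower, where 52.0% of all tested genes were called, and the median was 1.33 beside -0.07 over all genes. Both comparisons use the same PlaB libraries, so they are not independent of each other. Against DMSO, Fgf4 (-1.83 ± 0.10) and Utf1 (-1.80 ± 0.11) were called lower in SE KO PlaB, where 5881 of the 20953 tested genes were called. Pou5f1 (-0.82), Lin28a (-0.77), Sox2 (-0.56) and Nanog (-0.51) passed as lower and Sall4 (0.57) as higher. With ESC as the control, Fgf4 (-0.60) was not called, Lin28a (-1.54) was, and Sox2 (0.07) and Sall4 (-0.57) turned direction.

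Lin28a and Utf1 were both below PlaB in SE KO PlaB. Lin28a had 135.5 and 153 CPM (-0.46 ± 0.13, edgeR adjusted p = 0.00353) and Utf1 106 and 137 CPM (-0.98 ± 0.11, edgeR adjusted p = 1.0e-08). Utf1 lies at the edge of the size threshold and was called, at -1.11, with RLE scaling, with library totals alone and in DESeq2, and at -1.16 without SE KO PlaB replicate 2. The 2-cell-like markers summed to 482 to 586 CPM in SE KO PlaB and the trophectoderm markers to 151 to 253 CPM, both between Dux KD PlaB and PlaB. Primitive endoderm markers summed to 128 to 138 CPM, above the other PlaB groups. Their part in the levels of the 7 genes was not tested.

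Set directly against each other, a comparison added after the levels had been seen, SE KO PlaB was below Dux KD PlaB in 2 called genes where 21.5% of all genes were called: Fgf4 (-1.14 ± 0.10, edgeR adjusted p = 4.7e-10) and Lin28a (-1.08 ± 0.13, edgeR adjusted p = 2.4e-07). Without SE KO PlaB replicate 1, the Lin28a value was -0.99 and no longer called. Sox2 was also lower, by 0.84 on the log2 scale, and Sall4 higher, at 0.51 ± 0.07. Nanog did not pass, at 0.08 ± 0.07 (edgeR adjusted p = 0.407).

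**Figure D2:**
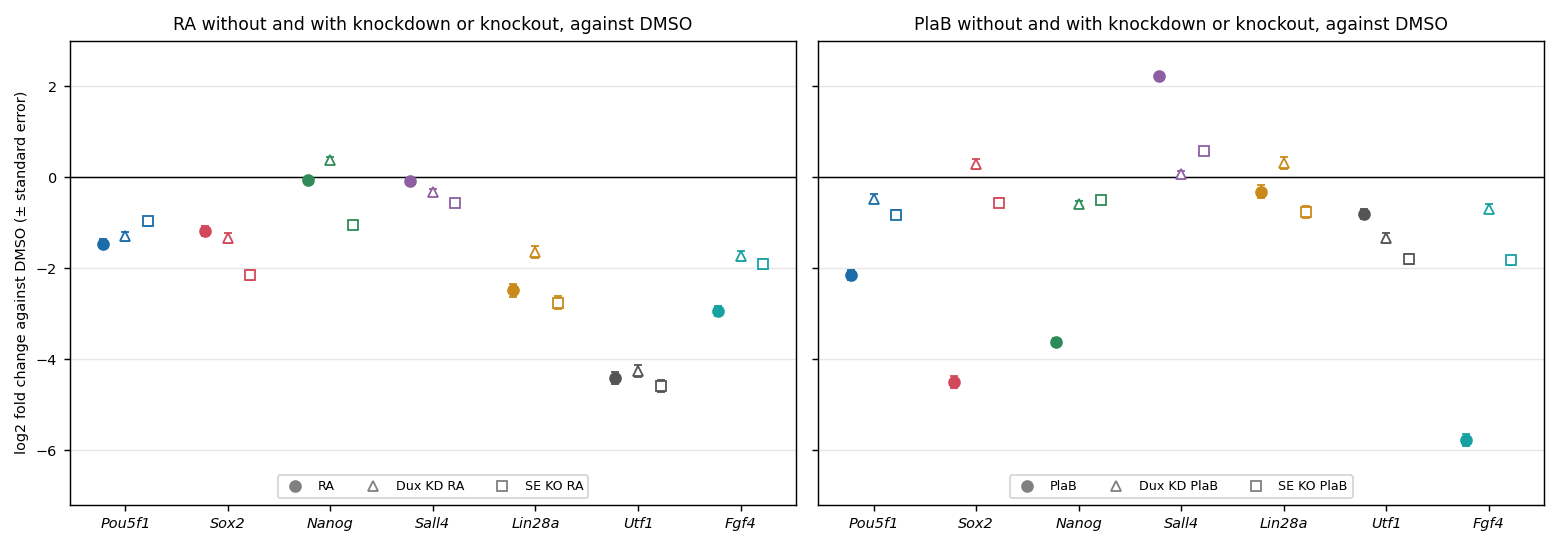
Log2 fold change against DMSO (± SE) of each gene under RA (left) and PlaB (right), for the wild-type induction (filled circle), Dux KD (open triangle) and SE KO (open square). Under PlaB the knockdown and knockout points of Fgf4, Sox2, Nanog, Pou5f1 and Sall4 lay nearer to 0 than PlaB alone, while under RA the Utf1 points lay between -4.25 and -4.58 in all 3 groups.

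RA lowered another subset of the genes. Utf1, the chromatin protein of undifferentiated cells, was at 19.8 CPM in both RA replicates against 411 and 433 CPM in DMSO, 21.3-fold lower (-4.41 ± 0.13, edgeR adjusted p = 6.9e-20). Fgf4 had 39.8 and 42.3 CPM against 321 and 311 CPM, 7.69-fold lower (-2.94 ± 0.11, edgeR adjusted p = 3.3e-18), and Lin28a 46.3 and 41.5 CPM against 243 and 250 CPM, 5.61-fold lower (-2.49 ± 0.14, edgeR adjusted p = 4.7e-14). Pou5f1 and Sox2 changed less: Pou5f1 had 315.5 and 340 CPM, 2.75-fold below DMSO (-1.46 ± 0.10, edgeR adjusted p = 1.7e-12), and Sox2 256 and 268 CPM, 2.26-fold below it (-1.18 ± 0.11, edgeR adjusted p = 4.6e-10).

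Nanog and Sall4 did not pass the test between RA and DMSO. Nanog had 857 and 877 CPM in RA against 888 and 935 CPM (-0.07 ± 0.07, edgeR adjusted p = 0.407), and Sall4 211 and 220 CPM against 226 and 231 CPM (-0.08 ± 0.07, edgeR adjusted p = 0.346). Thus 5 of 7 genes were called lower and none higher, where 31.0% of all tested genes were called in either direction and 10.4% lower, with a median of -1.46 beside 0.11 over all genes. With library totals in place of TMM, which moved the median of all genes by 0.19, Sox2 was at -0.98 and not called, and Nanog and Sall4 turned to 0.12 and 0.11. Against ESC, the other control, Sox2 was at -0.55 and Pou5f1 at -0.98, neither called, Nanog at 0.37 and Sall4 at -1.22. The 2-cell-like markers summed to 469 to 541 CPM in RA and the primitive endoderm markers to 99.8 to 102 CPM, above DMSO in both cases. The trophectoderm markers summed to 62.3 to 70.2 CPM against 28.0 to 29.1 CPM, and the 5 ESC markers to 3580 CPM against 6080 to 6090 CPM, with 4 of 5 called lower. Their part in the changes of the 7 genes was not tested.

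Under RA, Fgf4 was the 1 member called with the Dux knockdown, at 94.3 and 95.7 CPM in Dux KD RA against 39.8 and 42.3 CPM in RA, 2.31-fold higher (1.21 ± 0.10, edgeR adjusted p = 1.2e-09), where 10.9% of all tested genes were called. Lin28a, the let-7 inhibitor, passed at 80.5 and 77.1 CPM against 46.3 and 41.5 CPM (0.84 ± 0.14, edgeR adjusted p = 3.5e-05). Nanog passed at 1181 and 1194 CPM against 857 and 877 CPM (0.45 ± 0.07, edgeR adjusted p = 1.6e-05), which made Dux KD RA the group with the highest Nanog level. Sall4 was slightly lower, at 190 and 175 CPM against 211 and 220 CPM (-0.24 ± 0.07, edgeR adjusted p = 0.0106).

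Pou5f1, Sox2 and Utf1 did not pass. Pou5f1 had 360 and 374.5 CPM in Dux KD RA (0.16 ± 0.10, edgeR adjusted p = 0.21), Sox2 236 and 232 CPM (-0.16 ± 0.11, edgeR adjusted p = 0.244) and Utf1 23.2 and 21.1 CPM (0.16 ± 0.13, edgeR adjusted p = 0.367). Utf1 was still 19.1-fold below DMSO in Dux KD RA, and the same 5 genes that were called lower in RA than in DMSO were called lower in Dux KD RA, where 31.9% of all genes were called in either direction. Both comparisons share the DMSO libraries. Against ESC, 3 genes were called in Dux KD RA, where 6021 of the 20953 tested genes were called: Utf1 (-4.05), Lin28a (-2.41) and Sall4 (-1.46). Pou5f1 (-0.82), Sox2 (-0.71) and Fgf4 (-0.51) passed without reaching the size threshold. Duxf3 itself was low in these libraries, 16 and 6 counts against 49 and 59 in RA, and the 2-cell-like markers summed to 353 to 368 CPM in Dux KD RA.

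SE KO RA differed from RA in another way: Nanog and Sox2 were lower. Nanog, the highest of the 7 genes in RA, had 441 and 433 CPM in SE KO RA against 857 and 877 CPM, 1.98-fold lower (-0.99 ± 0.07, edgeR adjusted p = 2.4e-11). Sox2 had 132 and 136 CPM against 256 and 268 CPM, 1.96-fold lower (-0.97 ± 0.11, edgeR adjusted p = 5.0e-08). Fgf4 was 2.05-fold higher, at 86.5 and 81.9 CPM against 39.8 and 42.3 CPM (1.04 ± 0.10, edgeR adjusted p = 5.9e-09), and was the 1 gene called, where 17.6% of all tested genes were called.

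These 3 values lie at the size threshold, and small changes of the fit move them across it. Without SE KO RA replicate 1, the library with the conflicting genotype label, Fgf4 was at 0.998 and not called, Nanog at -1.002 and called, and Sox2 at -0.95, and without RA replicate 1 they were at 0.995 and -1.003. With library totals alone, Sox2 (-1.02) and Nanog (-1.04) were called and Fgf4 (0.99) was not. All of them passed at the adjusted p in each of these fits. Pou5f1 passed as higher in SE KO RA, at 472 and 451 CPM against 315.5 and 340 CPM (0.49 ± 0.10, edgeR adjusted p = 1.9e-04), and Sall4 as lower, at 159 and 150 CPM against 211 and 220 CPM (-0.48 ± 0.07, edgeR adjusted p = 6.2e-06). Lin28a, with 35.7 and 37.0 CPM, and Utf1, with 17.2 and 18.0 CPM, did not pass (edgeR adjusted p = 0.128 and 0.306). Without SE KO RA replicate 1 these 4 genes held their direction and side of the threshold, at 0.46 for Pou5f1, -0.52 for Sall4, -0.25 for Lin28a and -0.14 for Utf1.

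Knockdown and knockout under RA were also set against each other, again after the levels had been seen. In SE KO RA, Nanog was 2.72-fold below Dux KD RA (-1.44 ± 0.07, edgeR adjusted p = 1.1e-14) and Lin28a 2.17-fold below it (-1.12 ± 0.14, edgeR adjusted p = 2.4e-07), the 2 genes called where 28.2% of all genes were called. Sox2 was lower by 0.80 on the log2 scale, and Fgf4 did not pass, at -0.17 ± 0.10 (edgeR adjusted p = 0.139). Without SE KO RA replicate 1, Nanog was at -1.45, Lin28a at -1.09, Sox2 at -0.78 and Fgf4 at -0.21, with the same 2 genes called. The 2-cell-like markers summed to 51.9 to 54.4 CPM in SE KO RA, the primitive endoderm markers to 58.3 to 62.8 CPM and the trophectoderm markers to 103 to 109 CPM. The 5 ESC markers summed to 2570 CPM against 3580 CPM in RA, 4 called lower and 1 higher, where 11.0% and 6.57% of all genes were. Neural markers summed to 187 to 199 CPM against 144 to 153 CPM in RA, with 2 of 4 tested called higher and 0 lower. In the controls the neural markers summed to 143 to 156 CPM in DMSO and to 318 CPM in ESC, above SE KO RA. Without SE KO RA replicate 1 the median log2 fold changes against RA were -1.19 for the ESC markers and 0.95 for the neural markers. The part of these markers in the differences was not tested.

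**Figure D3:**
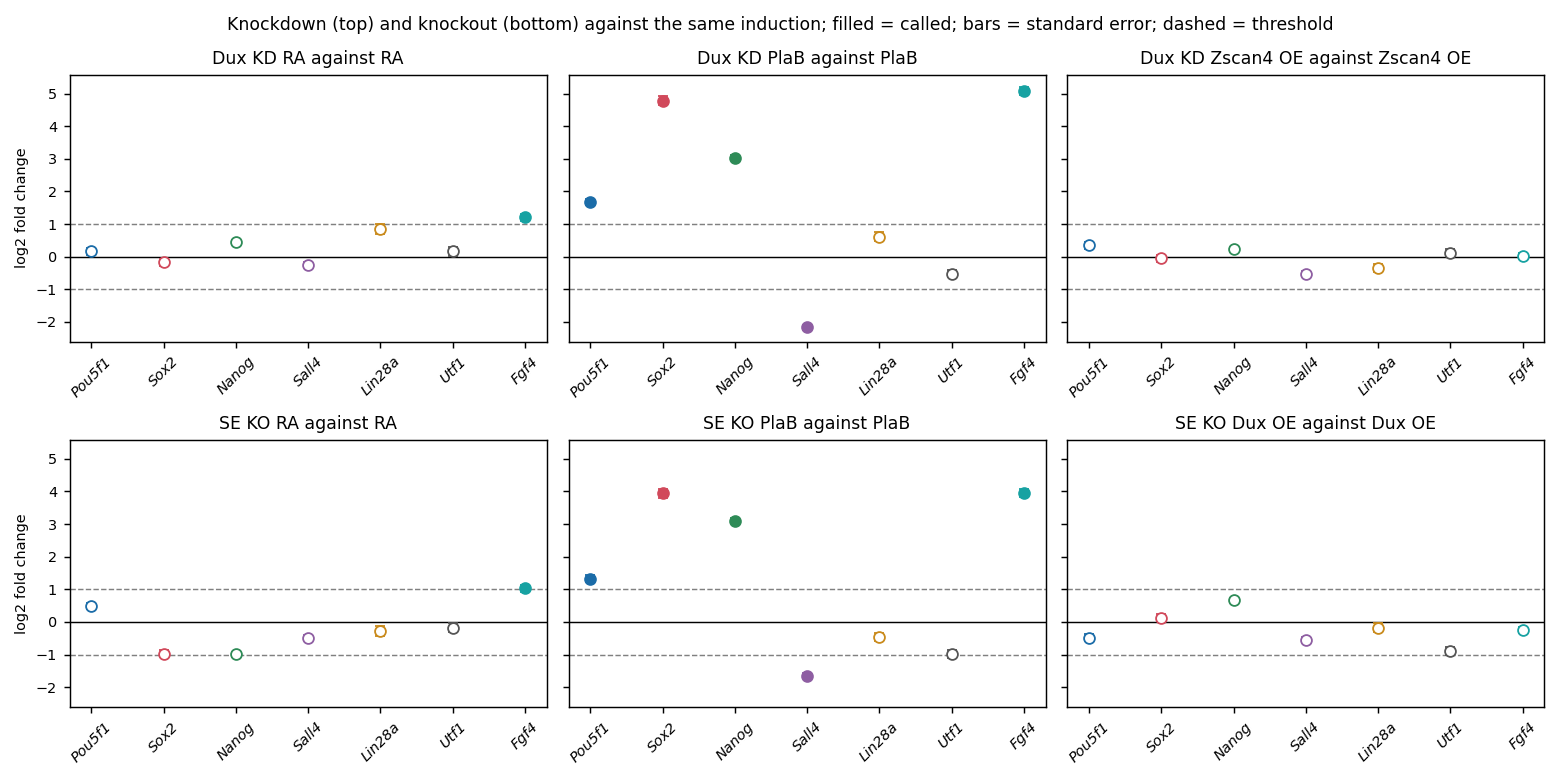
Log2 fold change (± SE) of each gene in the knockdown (top) or knockout (bottom) against the same induction in wild-type cells. Filled points were called and dashed lines mark an absolute log2 fold change of 1. Called points are 5 genes in each PlaB panel and Fgf4 in each RA panel, and none in the panels of the Zscan4 and Dux transgenes.

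Under the Zscan4 transgene the members changed little with the knockdown. Zscan4 OE had 1 called gene against ESC, where 11.6% of all genes were called: Utf1, at 174 and 168 CPM against 364 and 368 CPM (-1.10 ± 0.11, edgeR adjusted p = 1.7e-08), which was -0.95 and not called with library totals alone. Sox2 was higher than in ESC, at 689 and 658 CPM against 391 and 377 CPM (0.81 ± 0.11, edgeR adjusted p = 1.0e-06), and Lin28a lower, at 277 and 282 CPM against 420 and 418.5 CPM (-0.58 ± 0.13, edgeR adjusted p = 8.8e-04). Pou5f1 did not pass, at 666 and 677 CPM against 659.5 and 638 CPM (0.05 ± 0.10, edgeR adjusted p = 0.74). Against DMSO, Sall4 was higher in Zscan4 OE (0.83) and Fgf4 lower (-0.95), both opposite to their direction against ESC. With that control Sox2 (0.19) and Lin28a (0.18) did not pass, Lin28a with its direction turned. Pou5f1 passed as lower (-0.43), and Utf1 was still called (-1.31).

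In Dux KD Zscan4 OE none of the 7 genes was called against Zscan4 OE, where 11.1% of all tested genes were called, and 4 passed with small changes, where 32.6% of all genes passed. Sall4 had 281 CPM in both replicates against 394 and 416 CPM (-0.53 ± 0.07, edgeR adjusted p = 3.3e-06), and Pou5f1 889 and 816 CPM against 666 and 677 CPM (0.34 ± 0.10, edgeR adjusted p = 0.0084). Nanog passed at 0.23 ± 0.07 (edgeR adjusted p = 0.0153). Lin28a passed narrowly (-0.35 ± 0.13, edgeR adjusted p = 0.0473) with replicates far apart, 159 and 281 CPM against 277 and 282 CPM, and its value was -0.82 without replicate 2 and -0.02 without replicate 1 of the knockdown group. Fgf4 had 167 and 165 CPM against 162 and 166 CPM (0.01 ± 0.10, edgeR adjusted p = 0.938), and the Sox2 replicates, 743 and 554 CPM, lay on both sides of Zscan4 OE. The labels give this knockdown group no treatment and no time, while Zscan4 OE was given doxycycline for 24 h. Its 2-cell-like markers summed to 2.40 to 3.31 CPM against 249 to 256 CPM in Zscan4 OE.

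In Dux OE, 6 of the 7 genes passed as lower than in ESC without any reaching the size threshold, where 9.51% of all tested genes were called and 12.8% passed as lower. Utf1 fell by 0.87 on the log2 scale, from 364 and 368 CPM in ESC to 201 and 198 CPM (edgeR adjusted p = 8.2e-07), and Lin28a by 0.72, to 257 and 251 CPM (edgeR adjusted p = 1.5e-04). Sall4 (-0.58), Fgf4 (-0.43), Nanog (-0.41) and Pou5f1 (-0.33) passed as well. Sox2 had 369 and 393 CPM against 391 and 377 CPM, overlapping (-0.01 ± 0.11, edgeR adjusted p = 0.965). The choice of control matters here: against DMSO, Fgf4 (-1.65) and Utf1 (-1.08) were called, Sall4 was higher (0.55), Lin28a did not pass (0.04) and Sox2 passed as lower (-0.64). The 2-cell-like markers summed to 3310 to 3400 CPM in Dux OE, against 19.9 to 23.0 CPM in ESC and 7260 to 7320 CPM in PlaB.

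SE KO Dux OE against Dux OE had no called gene, where 6.30% of all tested genes were called, and 4 of 7 passed, where 25.4% of all genes did. Nanog was higher, at 839 and 777 CPM against 509 and 502.5 CPM (0.68 ± 0.07, edgeR adjusted p = 1.6e-07). Utf1 had 94.5 and 122 CPM against 201 and 198 CPM (-0.89 ± 0.11, edgeR adjusted p = 2.4e-06) and was called, at -1.06, without SE KO Dux OE replicate 2. Sall4 (-0.55 ± 0.07, edgeR adjusted p = 5.8e-06) and Pou5f1 (-0.48 ± 0.10, edgeR adjusted p = 7.7e-04) were lower. Sox2, Lin28a and Fgf4 did not pass, with log2 differences of 0.14, -0.18 and -0.25. The 2-cell-like markers summed to 1360 to 1570 CPM in SE KO Dux OE, and the fibroblast markers to 103 to 104 CPM against 44.5 to 47.2 CPM in Dux OE. Their part in these differences was not tested.

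The condensate mutant was compared with ESC and with wild-type Dux. Against ESC, 3 genes were called lower in DuxR70A OE, where 16.9% of all tested genes were called: Sall4, at 241 and 224 CPM against 490 and 515 CPM (-1.11 ± 0.07, edgeR adjusted p = 5.1e-12), Utf1, at 198 and 157 CPM against 364 and 368 CPM (-1.04 ± 0.11, edgeR adjusted p = 2.0e-08), and Lin28a, at 203.5 and 208 CPM against 420 and 418.5 CPM (-1.03 ± 0.13, edgeR adjusted p = 4.9e-07). With library totals alone, which raised the median of all genes by 0.20 in this comparison, the values were -0.88, -0.81 and -0.79 and none was called. Utf1 was at -0.89 without DuxR70A OE replicate 2, and against DMSO Lin28a was at -0.26 and Sall4 at 0.02, neither called, while Nanog was called (-1.28). Pou5f1 (-0.01 ± 0.10) and Sox2 (0.09 ± 0.11) did not pass against ESC, while Nanog passed as lower (-0.84 ± 0.07) and Fgf4 as higher (0.66 ± 0.10). Against DMSO, Utf1 was still called lower (-1.25), and Fgf4 (-0.57), Sox2 (-0.54) and Pou5f1 (-0.48) passed as lower.

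Against Dux OE, Fgf4 was the 1 gene called in DuxR70A OE, where 13.6% of all tested genes were called. It had 223 and 204 CPM in the mutant against 101 and 100.3 CPM in Dux OE, 2.12-fold higher (1.08 ± 0.10, edgeR adjusted p = 2.0e-09). Sall4 (-0.53 ± 0.07) and Nanog (-0.43 ± 0.07) passed as lower and Pou5f1 (0.32 ± 0.10) as higher. Sox2 differed by 0.10 ± 0.11 (edgeR adjusted p = 0.498), Utf1 by -0.17 ± 0.11 (edgeR adjusted p = 0.252) and Lin28a by -0.31 ± 0.13 (edgeR adjusted p = 0.074). In DuxR70A OE the 2-cell-like markers summed to 0.537 to 0.565 CPM, with 0 of the 8 above 3 counts in both libraries.

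Whether an effect of the knockdown or knockout differed between inductions was tested in the same model. The knockdown effect under PlaB minus that under RA was called for 5 of 7 genes, where 52.2% of all genes were called: it was 4.95 ± 0.16 for Sox2, 3.87 ± 0.16 for Fgf4, 2.58 ± 0.10 for Nanog, 1.52 ± 0.14 for Pou5f1 and -1.92 ± 0.10 for Sall4. Lin28a alone did not pass this difference (-0.23 ± 0.19, edgeR adjusted p = 0.312). Under the Zscan4 transgene minus RA, the knockdown difference was called for Fgf4 (-1.20 ± 0.14) and Lin28a (-1.19 ± 0.20), where 12.3% of all genes were called. The knockout effect under PlaB minus that under RA was called for Sox2 (4.91), Nanog (4.10), Fgf4 (2.91) and Sall4 (-1.17), where 49.0% of all genes were called. Under the Dux transgene the knockout effect exceeded that under RA for Nanog (1.67 ± 0.10) and Sox2 (1.11 ± 0.15) and was below it for Fgf4 (-1.29 ± 0.14), where 20.8% were called. Without SE KO RA replicate 1 the differences under PlaB were 4.91, 4.13, 2.97 and -1.10 for Sox2, Nanog, Fgf4 and Sall4, and those under the Dux transgene 1.68, 1.08 and -1.25 for Nanog, Sox2 and Fgf4, all still called.

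Over the 13 groups, Fgf4 varied most, 55.0-fold between DMSO and PlaB. Sox2 varied 27.6-fold, from Dux KD PlaB down to PlaB, Utf1 24.0-fold, from DMSO to SE KO RA, and Nanog 16.0-fold, from Dux KD RA to PlaB. Lin28a varied 11.5-fold, from ESC to SE KO RA, Sall4 6.90-fold, from PlaB to SE KO RA, and Pou5f1 least, 4.44-fold, from DMSO to PlaB. Nanog was highest in Dux KD RA (1188 ± 9 CPM), then in Dux KD Zscan4 OE (1043 ± 85 CPM) and DMSO (911.5 ± 33.8 CPM), and of its 12 pairs of neighbours only DMSO and Zscan4 OE overlapped. For Pou5f1, 6 of the 12 neighbouring pairs overlapped in their replicates, so its order in the middle, with Zscan4 OE, Dux KD PlaB, ESC and DuxR70A OE between 671.5 and 646 CPM, is not resolved. Sall4 was clear at both ends, with PlaB (1066 ± 33 CPM) above ESC (502 ± 18 CPM), and SE KO RA (155 ± 7 CPM) below Dux KD RA (182 ± 11 CPM). Lin28a and Utf1 had the same 3 lowest groups, Dux KD RA, RA and SE KO RA.

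As a description across group means, which share library preparation and controls, log2 CPM of Utf1 and Lin28a had a Pearson r of 0.929 over 13 groups and 0.937 over the 12 without PlaB. Fgf4 and Pou5f1 had an r of 0.914, and 0.893 without PlaB. Other pairs rested on PlaB: Sox2 and Nanog had 0.81 and, without it, 0.254, and Sall4 and Nanog -0.664 and 0.0368. Among 10190 genes averaging 3 or more in log2 CPM, the genes whose 13 group means were most like a member were Mtus1 for Pou5f1 (r = 0.931), Yes1 for Sox2 (0.973), Nsmce3 for Nanog (0.971), Cog8 for Sall4 (0.956), Ung for Lin28a (0.963), Pnldc1 for Utf1 (0.946) and Prpf38b for Fgf4 (0.979). Next were Cbx7 and 5430416N02Rik for Pou5f1, Mplkip and Tra2a for Sox2, Smarca5 and Kdm6a for Nanog, Sugp1 and Ess2 for Sall4, Tcea3 and Shmt1 for Lin28a, Ruvbl1 and Pus1 for Utf1, and Piga and Rsbn1 for Fgf4. Without PlaB these r values of the 3 likest genes fell to between 0.78 and 0.883 for Nanog and were between 0.953 and 0.966 for Lin28a.

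Partners and cofactors of OCT4, SOX2 and NANOG, a list of 14 genes all tested, moved under PlaB in the direction of Sox2 and Nanog. In Dux KD PlaB against PlaB, 9 were called higher and 0 lower, where 26.1% of all tested genes were called higher and 28.8% lower, and their median was 1.55 beside -0.14 over all genes. They include Nr5a2, a nuclear receptor that binds the Pou5f1 promoter, at 160 CPM against 9.34 CPM (4.10 ± 0.08), and Nacc1, which encodes a NANOG-binding BTB protein, at 306 CPM against 25.1 CPM (3.61 ± 0.10). In SE KO PlaB against PlaB the counts were also 9 higher and 0 lower, where 25.9% of all genes were called higher and 26.1% lower, with Nr5a2 at 3.83 ± 0.08 and Nacc1 at 3.72 ± 0.10. Under RA the knockout comparison had 0 called higher and 6 lower, where 6.57% and 11.0% of all genes were, with a median of -0.73 beside -0.04. Among these, Esrrb, an orphan nuclear receptor of naive pluripotency, had 94.7 CPM in SE KO RA against 517 CPM in RA (-2.45 ± 0.09, edgeR adjusted p = 5.6e-17), and Klf4, a reprogramming factor, 48.0 CPM against 251 CPM (-2.38 ± 0.16, edgeR adjusted p = 5.7e-12). In Dux KD RA against RA 1 partner was called, Nr5a2, at 67.6 CPM against 155 CPM (-1.20 ± 0.07), and in both transgene comparisons none was.

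Targets of the core network numbered 16, all tested. Of these, 6 were called higher and 2 lower in Dux KD PlaB, where 26.1% and 28.8% of all genes were. In SE KO PlaB 3 were called higher and 5 lower, shares near the 25.9% and 26.1% of all genes. L1td1, an RNA-binding protein gene, rose to 675 CPM with the knockdown and 581 CPM with the knockout from 97.5 CPM in PlaB, while Dppa2, which helps to activate Dux, fell from 1250 CPM to 92.2 CPM and 284 CPM. In SE KO RA against RA, 9 of 16 targets were called lower and 1 higher, where 11.0% and 6.57% of all genes were, with a median of -1.23 beside -0.04 over all genes. Without SE KO RA replicate 1 the counts were the same in all 5 gene lists, with 9 lower and 1 higher here and 6 lower and 0 higher among the partners. Dppa2 (25.9 CPM against 237 CPM) and L1td1 (50.4 CPM against 214 CPM) were the largest of these falls, and Dppa5a, at 1560 CPM against 678 CPM, was the rise. Lefty1, a NODAL antagonist, was lower in Dux KD RA (-1.63 ± 0.13), Dux KD PlaB (-2.22 ± 0.15), Dux KD Zscan4 OE (-3.29 ± 0.17), SE KO RA (-1.38 ± 0.13) and SE KO PlaB (-2.89 ± 0.15) than in the matching inductions and higher in SE KO Dux OE than in Dux OE (1.86 ± 0.17).

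Receptors and ERK pathway genes downstream of FGF4 numbered 12, all tested. In Dux KD PlaB, where Fgf4 rose, 7 were called higher and 3 lower than in PlaB, where 26.1% and 28.8% of all genes were, so the share called lower was near the background. The ETS factor gene Etv4, a transcriptional target of ERK, had 116 CPM against 15.6 CPM (2.89 ± 0.10), and Ptpn11, which encodes the phosphatase SHP2, 79.4 CPM against 16.9 CPM (2.24 ± 0.11). Fgfr2, a receptor gene, and Egr1, an immediate early ERK target, were lower (-2.97 ± 0.24 and -1.75 ± 0.20). In SE KO PlaB, 6 were called higher and 2 lower, where 25.9% and 26.1% of all genes were. Under RA, where Fgf4 rose in both comparisons, the counts were 1 higher and 1 lower in each, near the 10.9% (knockdown) and 17.6% (knockout) of all genes called: Fgfr2 rose (1.13 ± 0.16) and Egr1 fell (-1.68 ± 0.26) with the knockdown, while Egr1 rose (1.27 ± 0.19) and Etv5 fell (-1.68 ± 0.10) with the knockout.

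Genes of the LIN28A and let-7 axis, 12 in all and all tested, were called higher in 7 cases and lower in 0 in Dux KD PlaB, where 26.1% and 28.8% of all genes were, and in 7 and 1 cases in SE KO PlaB, where 25.9% and 26.1% were. Dicer1, which encodes the RNase that cuts let-7 precursors, had 178 CPM in Dux KD PlaB and 156 CPM in SE KO PlaB against 19.1 CPM in PlaB. Trim71, a let-7 target, rose in SE KO PlaB (2.36 ± 0.10), and Igf2bp3, another, fell there (-1.56 ± 0.12). Under RA, Igf2bp3 was called lower with the knockdown (-1.15 ± 0.11).

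Paralogs of the 7 genes numbered 11, of which 10 were tested. Under PlaB, 7 were called higher and 1 lower with the knockdown, and 9 higher and 1 lower with the knockout, where 26.1% and 28.8%, and 25.9% and 26.1%, of all genes were. Sall1 had 177 CPM in SE KO PlaB against 6.55 CPM in PlaB (4.75 ± 0.13), opposite in direction to Sall4. Sox15, a SOX gene of ESCs, was lower with both edits, at 17.1 CPM and 5.42 CPM against 56.4 CPM. With Dux knocked down in Zscan4 OE, 3 were called lower, where 5.35% of all genes were, among them Lin28b, the paralog of Lin28a, at 13.5 CPM against 44.2 CPM (-1.71 ± 0.15).

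**Figure D4:**
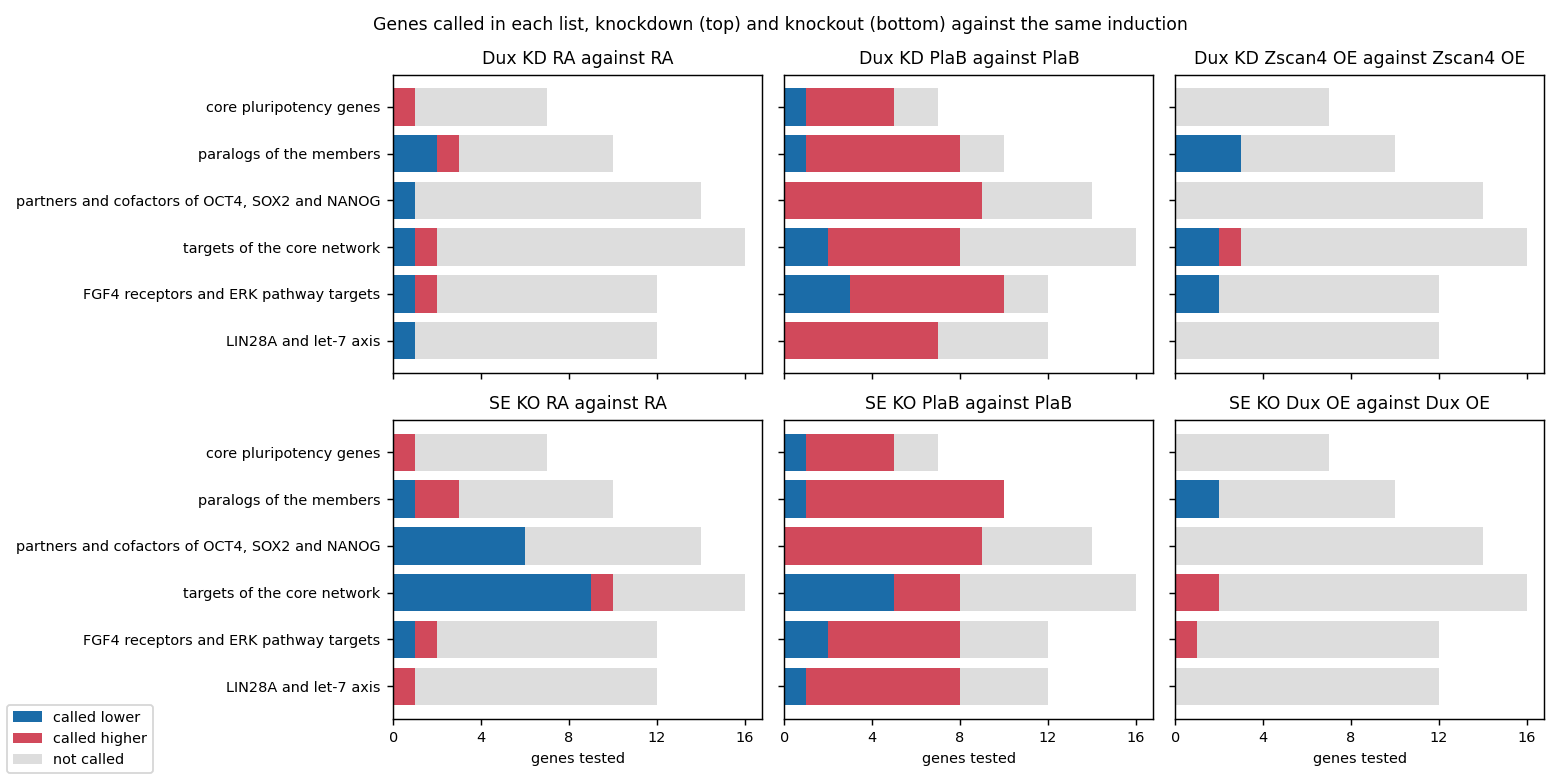
Number of genes called higher (red), called lower (blue) and not called (gray) among the tested genes of each list, for the 3 knockdown comparisons (top) and the 3 knockout comparisons (bottom). In the PlaB panels called-higher genes outnumber called-lower genes in every list except the targets in SE KO PlaB, and the SE KO RA panel holds 6 of 14 partners and 9 of 16 targets called lower.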

How the data were processed

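The 26 poly(A) libraries (NEBNext Ultra II) were deposited as 1 table of read counts per gene for 55291 genes, with gene positions and exon lengths. Per the labels, the authors' processing notes name FastQC, Trimmomatic, STAR, featureCounts and DESeq2 with mm10. Versions and the strand setting are not given in the sources used here, so antisense reads cannot be told apart.

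Counts were analysed in R 4.3.3 with edgeR 4.0.16. Genes were filtered with filterByExpr (20953 left), scaled by TMM and fitted as 1 quasi-likelihood model of 13 groups, with Benjamini-Hochberg adjustment over all tested genes and a common biological coefficient of variation of 0.0833. A gene passed at an adjusted p under 0.05 and was called if the absolute log2 fold change was also at least 1. The SE was taken from the fold change and its F statistic. CPM used TMM library sizes, RPKM exon lengths, and 3 counts equalled between 0.0796 and 0.226 CPM. The floor of 3 counts reflects counting error only, while SD and SE include the spread between these libraries.

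The 7 genes and the gene lists were chosen with earlier results of these data known. By rule, the text names all 7 members, and of each list up to 2 called genes with the largest rise and up to 2 with the largest fall in a comparison, together with the 3 genes likest to each member and Duxf3, Tdpoz3 and Zscan4c as checks. Esrrb and Tdgf1 as ESC markers, and Lefty1 in SE KO RA, were named after their values were seen. Alternatives were RLE scaling, library totals, no filter, DESeq2 1.42.0, only the groups compared, the other control, a replicate block and leaving out each library. List counts without SE KO RA replicate 1 were added after seeing the data. The model was tested on simulated data with far fewer changed genes than the PlaB comparisons had. That test therefore does not cover comparisons in which most genes were called. Of 53292 table genes named in GENCODE M21, 99.3% had the same position there.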

Additional observations from a re-analysis of the deposited data

Results flagged for a closer look

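For 14 combinations of gene and comparison, the effect of the knockdown or the knockout differed between inductions by the interaction term of the edgeR model, with an adjusted p under 0.05 and a difference of at least 1 on the log2 scale. Differences are the first effect minus the effect of the same edit under RA.

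The Dux KD effect under PlaB exceeded that under RA by 4.95 ± 0.16 for Sox2 (edgeR adjusted p = 1.8e-19), 3.87 ± 0.16 for Fgf4 (edgeR adjusted p = 2.0e-17), 2.58 ± 0.10 for Nanog (edgeR adjusted p = 9.4e-18) and 1.52 ± 0.14 for Pou5f1 (edgeR adjusted p = 3.0e-10). For Sall4 it was lower, at -1.92 ± 0.10 (edgeR adjusted p = 4.7e-15). Under the Zscan4 transgene, the Dux KD effect was below that under RA for Fgf4, at -1.20 ± 0.14 (edgeR adjusted p = 4.9e-07), and for Lin28a, at -1.19 ± 0.20 (edgeR adjusted p = 4.1e-05). Without Dux KD Zscan4 OE replicate 1, the Lin28a value was -0.85.

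The SE KO effect under PlaB exceeded that under RA by 4.91 ± 0.16 for Sox2 (edgeR adjusted p = 2.0e-19), 4.10 ± 0.11 for Nanog (edgeR adjusted p = 1.6e-21) and 2.91 ± 0.16 for Fgf4 (edgeR adjusted p = 8.4e-15), and was -1.17 ± 0.10 for Sall4 (edgeR adjusted p = 1.1e-10). Under the Dux transgene the differences were 1.67 ± 0.10 for Nanog (edgeR adjusted p = 1.8e-12), 1.11 ± 0.15 for Sox2 (edgeR adjusted p = 1.7e-06) and -1.29 ± 0.14 for Fgf4 (edgeR adjusted p = 6.3e-08). The differences that use SE KO share the RA and SE KO RA libraries, and those that use Dux KD share RA and Dux KD RA, so they are not independent of each other.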

How the results depend on the processing

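Under RLE scaling, DESeq2, no low-count filter and a fit of only the groups compared, between 172 and 173 of 175 member values held their direction and call. The log2 value of Sox2 in Dux OE against ESC turned to 0.0002 under RLE and under DESeq2 and to 0.0163 in the fit of only the groups compared. Pou5f1 in DuxR70A OE against ESC turned to 0.0216 in that last fit and to 0.0221 without the filter, where Fgf4 in Dux KD Zscan4 OE against Zscan4 OE was -0.0534 and 1 member was called in Dux KD Zscan4 OE against ESC. Library totals alone left 157 of 175. They called 2 members in SE KO RA against RA, 0 in Zscan4 OE against ESC and 0 in DuxR70A OE against ESC, and turned Fgf4 in Dux KD Zscan4 OE against Zscan4 OE to -0.0652, Nanog and Sall4 in RA against DMSO to 0.1225 and 0.1110, Sox2 in Dux OE against ESC to 0.0286, Pou5f1 in DuxR70A OE against ESC to 0.2271 and Utf1 in DuxR70A OE against Dux OE to 0.0243. Of the differences between effects they turned Sox2 (Dux KD, Zscan4 OE minus RA) to -0.0345 and Sall4 (SE KO, Dux OE minus RA) to 0.0211.

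With the other control, members called were 2 in Dux OE, 3 in Dux KD RA, 2 in Dux KD PlaB and 1 in Dux KD Zscan4 OE. Over all 20953 tested genes, those called were 3811, 6021, 2587 and 4030 in the same order. Directions turned for Nanog in RA (0.3711). In Zscan4 OE they turned for Pou5f1 (-0.4257), Nanog (-0.0347), Sall4 (0.8258), Lin28a (0.1831) and Fgf4 (-0.9451), in Dux OE for Sall4 (0.5545) and Lin28a (0.0440), and in DuxR70A OE for Sox2 (-0.5389), Sall4 (0.0248) and Fgf4 (-0.5650). In Dux KD PlaB they turned for Pou5f1 (0.0065), Sall4 (-1.0732), Lin28a (-0.4640) and Fgf4 (0.5309), and in Dux KD Zscan4 OE for Pou5f1 (-0.0816), Sall4 (0.2992) and Fgf4 (-0.9304). In SE KO PlaB they turned for Sox2 (0.0676) and Sall4 (-0.5668), and in SE KO Dux OE for Sox2 (-0.5018), Nanog (-0.1735) and Sall4 (0.0087). The cause was not tested.

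Leaving out 1 library leaves an arm with a lone sample that is assumed to vary like the other groups, and 783 member values held while 9 turned, 5 lost their call and 15 gained one. Ranges that crossed 0 were -0.0179 to 0.0295 for Fgf4 and -0.3045 to 0.1339 for Sox2 in Dux KD Zscan4 OE against Zscan4 OE, -0.0551 to 0.0403 for Pou5f1 in DuxR70A OE against ESC, -0.0976 to 0.0058 for Sox2 in Dux OE against ESC, and, for the Dux KD effect under Zscan4 OE minus RA, -0.1290 to 0.3080 for Sox2 and -0.1408 to 0.0406 for Utf1. Members called ranged from 0 to 1 in Dux KD Zscan4 OE against ESC and in SE KO Dux OE against Dux OE, and from 1 to 2 in SE KO PlaB against Dux KD PlaB and in the Dux KD difference between Zscan4 OE and RA.

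Counts of all genes called moved by over 1.5 times with the other control, from 1992 to 3811 in Dux OE, 3550 to 1897 in DuxR70A OE, 1701 to 4030 in Dux KD Zscan4 OE and 2695 to 4142 in SE KO Dux OE. They also moved from 2332 to 1547 in Dux KD Zscan4 OE against Zscan4 OE with only the groups compared, and from 1319 to 793 in SE KO Dux OE against Dux OE without Dux OE replicate 2. With the replicate block all 175 member values held, and genes called in Dux KD PlaB against PlaB were 11455 against 11509. Same-numbered samples did not deviate together (r from -0.0473 to 0.0237), so the numbers do not pair the samples.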
